A study of Mus musculus with 71 samples.

Results

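The 10 genes described here encode the MHC class II antigen presentation pathway of the mouse: H2-Aa, H2-Ab1 and H2-Eb1, the classical chains that carry peptide to the cell surface; Cd74, the invariant chain; Ciita, the coactivator; and H2-DMa, H2-DMb1, H2-DMb2, H2-Oa and H2-Ob, the chains of the peptide-editing proteins. They were taken by gene symbol, with no use of their measured levels, and are 10 of 25579 genes listed in the expression tables of pro-B cells and progenitors (31 samples) and 10 of 24420 genes listed in those of early T-lineage stages (17 samples). No member was at 0 in any of the 48 samples, and all 10 passed the filter of 1 TPM in at least 1 sample in each of the 4 models that were fitted. TPM is the usual scale on which reads are divided by transcript length and then by the library's sum, so that levels of different genes can be compared.

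The study asked which parts of the transcription factor Pax5 it needs to turn genes on and off in B cell development, and sequenced RNA of cells sorted from mice with altered Pax5 genes on the C57BL/6 background. Pax5+/+ pro-B cells of the bone marrow had 5 samples and every other genotype 2. Homozygous deletions removed the octapeptide (∆OP), the partial homeodomain (∆HD) or both (∆OP,HD). Deletions of C-terminal regulatory domain 1, 2 or both (∆CRD1, ∆CRD2, ∆CRD1,2) were studied as homozygotes and over a Pax5-null allele (∆CRD1/-, ∆CRD2/-, ∆CRD1,2/-). Pax5∆/∆ progenitors came from Vav-Cre Pax5 fl/fl mice, in which Vav-Cre deletes Pax5 throughout the blood system, so that the loss is not restricted to B cells. A separate experiment compared Vav-Cre Pax5 +/fl pro-B cells (+/∆), Vav-Cre Pax5 Prd/fl progenitors (Prd/∆), which make only the paired domain of Pax5, and Vav-Cre Pax5 fl/fl progenitors (∆/∆). All 3 of its genotypes carried Vav-Cre, so its controls had already lost 1 Pax5 allele. The T-lineage samples were wild-type LMPP, a multipotent bone marrow progenitor (2 samples), the thymic stages DN1, DN2a and DN2b (3 each) and DN3a and DN3b (2 each), and Rag2-/- DN3a cells (2). In each of DN1, DN2a and DN2b, 2 of the 3 libraries share a replicate number in their titles. Treating all 3 as separate samples was a choice that the labels do not settle, and n = 3 rests on it. The study names mice of 3 to 12 weeks for flow cytometry and of 3 to 5 weeks for the sorting of ∆CRD1/- and ∆CRD1,2/- cells. The ∆CRD1,2/- pro-B cells and the Pax5-deficient progenitors were sorted by another gate (Lin-Ly6D+Kit hi B220+) than the other pro-B cells. The labels mark both kinds of progenitor in the Prd experiment as gated in an alternative way, and the gate of the ∆CRD1,2 homozygotes is not given in the sources used here. In comparisons of these cells with +/+ or +/∆, the genotype and the gate cannot be told apart.

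MHC class II molecules display peptides from engulfed proteins to CD4 T cells, and B cells, dendritic cells and macrophages are the cells known for making them. The α and β chains assemble in the endoplasmic reticulum with the invariant chain, which blocks the groove and guides the complex to endosomes, where H2-DM exchanges the remnant of that chain for peptide, and where H2-O, made mainly in B cells, restrains H2-DM. Ciita does not bind DNA: it is recruited by RFX, CREB and NF-Y proteins that sit together on the X, X2 and Y boxes before each class II gene, and its own amount is what sets class II expression in most cells. C57BL/6 mice lack a working I-E α gene, and H2-Ea-ps, the name of that broken gene, was listed at 0 in every sample, so H2-Eb1 is transcribed in these mice without its partner chain.

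The members with H2 names lie in the class II region of chromosome 17 (GRCm38, GENCODE annotation), from H2-Oa at chr17:34092340-34095234 to H2-Eb1 at chr17:34305867-34316674, both on the forward strand. H2-Aa, at chr17:34282744-34287823, is on the reverse strand, unlike the other H2 members. Ciita lies apart, at chr16:10480059-10528418, and the place of Cd74 was not looked up here. RefSeq promoter windows of 250 bases before the start (GRCm38.p6) were found for 7 of the 10 members, in 8 entries. They are shown around the Y-like letters GATTGG (NF-Y side of the module) and the X2-like letters TGATGC or TGACGT (CREB side), each searched on both strands, because these are the boxes through which Ciita acts. Capitals mark the matches, and the letters were chosen with these promoters in view. In H2-Aa the X2-like match overlaps its own reverse complement. Each line gives the gene, its place on chromosome 17 and the gene-strand sequence, 5′ to 3′.

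H2-Aa, chr17:34287859-34287917: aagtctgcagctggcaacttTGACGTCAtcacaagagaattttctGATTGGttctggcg
H2-Eb1, chr17:34305764-34305820: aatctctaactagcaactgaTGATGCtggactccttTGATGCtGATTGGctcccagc
H2-DMb1, chr17:34153085-34153142: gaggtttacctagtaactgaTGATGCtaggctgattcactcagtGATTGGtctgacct
H2-DMb2, chr17:34145114-34145171: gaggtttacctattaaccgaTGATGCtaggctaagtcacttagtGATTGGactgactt
H2-Ob, chr17:34238806-34238860: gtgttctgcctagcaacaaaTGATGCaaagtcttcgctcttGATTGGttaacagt
H2-Oa, chr17:34092275-34092348: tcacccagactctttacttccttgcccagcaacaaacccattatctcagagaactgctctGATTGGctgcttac
H2-DMa, chr17:34122752-34122831: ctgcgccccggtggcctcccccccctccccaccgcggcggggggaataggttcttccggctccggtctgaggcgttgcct

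Of the 7 members, 5 (H2-Aa, H2-Eb1, H2-DMb1, H2-DMb2 and H2-Ob) held X2-like letters within 60 bases before GATTGG on the strand of the gene. The same pair was present in 78 of 32851 promoter entries (0.237%), GATTGG alone in 14.6% and X2-like letters alone in 15.2%. In H2-Aa the X2-like letters began 74 bases and GATTGG 49 bases before the start. H2-Eb1 held 2 X2-like matches, at 83 and 67 bases before the start, and GATTGG at 60 bases. H2-DMb1 and H2-DMb2 held the pair at 86 and 62 and at 115 and 91 bases before their starts. H2-Ob held it at 79 and 58 bases. H2-Oa held GATTGG alone, at 44 bases, and the first H2-DMa start held neither. These are matches of letters in a fixed window and not measured binding.

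**Figure D1:**
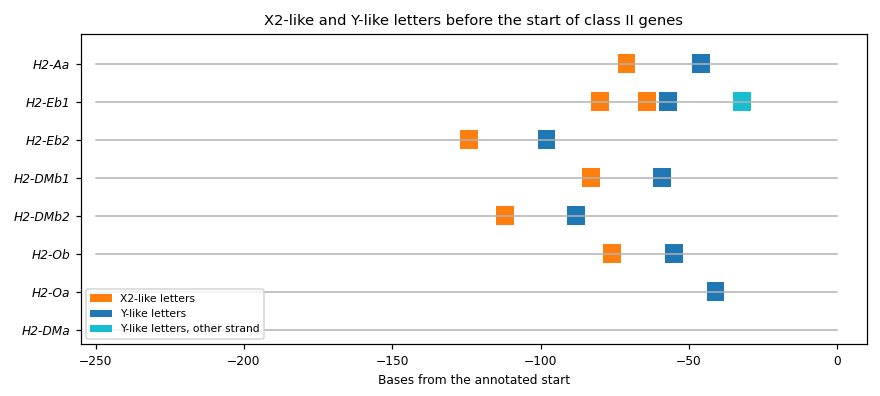
Positions of X2-like letters (TGATGC or TGACGT, orange) and Y-like letters (GATTGG, blue; on the other strand, cyan) in the 250 bases before the RefSeq start of 7 members and of H2-Eb2, a class II gene that is no member. The x axis is the distance from the annotated start in bases; 5 of the 7 members show the X2-like and Y-like letters in that order, with the Y-like letters between 91 and 49 bases before the start.

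Depth ranged from 10018678 to 43784791 reads per library where reads could be recovered from the deposited TPM values. The pro-B marker genes summed to between 14541 and 18580 TPM in the +/+ samples and to between 5049 and 5753 TPM in the ∆/∆ progenitors. Granulocyte marker genes exceeded 3000 TPM in 5 libraries of the C-terminal set (+/+ replicates 4 and 5, ∆CRD2/- replicate 1, ∆CRD2/∆CRD2 replicate 1 and ∆/∆ replicate 1), in both ∆OP/∆OP libraries and in ∆OP,HD replicate 2. Libraries had been sequenced with reads of 50 or of 100 nucleotides, which the authors trimmed to 50, so that this term marks a set of sequencing runs rather than the aligned length. The genotype with both was +/+ (replicates 1, 2 and 5 at 50, replicates 3 and 4 at 100). The fit of the C-terminal set holds a read-length term, so that each mutant is compared with the +/+ libraries of its own read length: ∆/∆ and ∆CRD1/∆CRD1 with replicates 1, 2 and 5, and the other mutants with replicates 3 and 4. Nothing in the labels says that replicates came from separate mice, so p-values measure the spread between these samples.

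The +/+ pro-B cells did not express the pathway evenly. H2-Ab1, the I-A β chain, was the member that varied least: it stood at 231, 244, 216, 198 and 234 TPM in +/+ replicates 1 to 5, a coefficient of variation of 8.04%. H2-Aa, the α chain that pairs with it, stood at 49.2, 35.6, 11.7, 28.1 and 24.2 TPM, a 4.21-fold range. Replicates 3 and 4 were below replicates 1 and 2 for H2-Aa, whereas the H2-Ab1 values of the 5 replicates lay within 1.23-fold of each other.

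Cd74 spread further, at 156, 249, 34.3, 76.3 and 116 TPM in +/+ replicates 1 to 5, a 7.26-fold range. Ciita stood at 5.79, 3.45, 0.926, 1.17 and 3.20 TPM in the same order, and its 2 libraries of 100-nucleotide reads were the lowest. The fitted difference between +/+ libraries of 50 and of 100 nucleotides was 1.84 on the log2(TPM + 0.1) scale for Ciita (SE 0.33, limma adjusted p = 0.0137), and 1.69 for Cd74 (limma adjusted p = 0.0725). Ms4a1 (CD20), a gene of later B cells, stood at 16.8, 30.5, 2.14, 6.38 and 10.4 TPM in replicates 1 to 5, which is the order of Cd74. The part of later B cells and of the sequencing set in this spread was not tested. The plot of Cd74 against Ms4a1 shows the 31 samples.

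**Figure D2:**
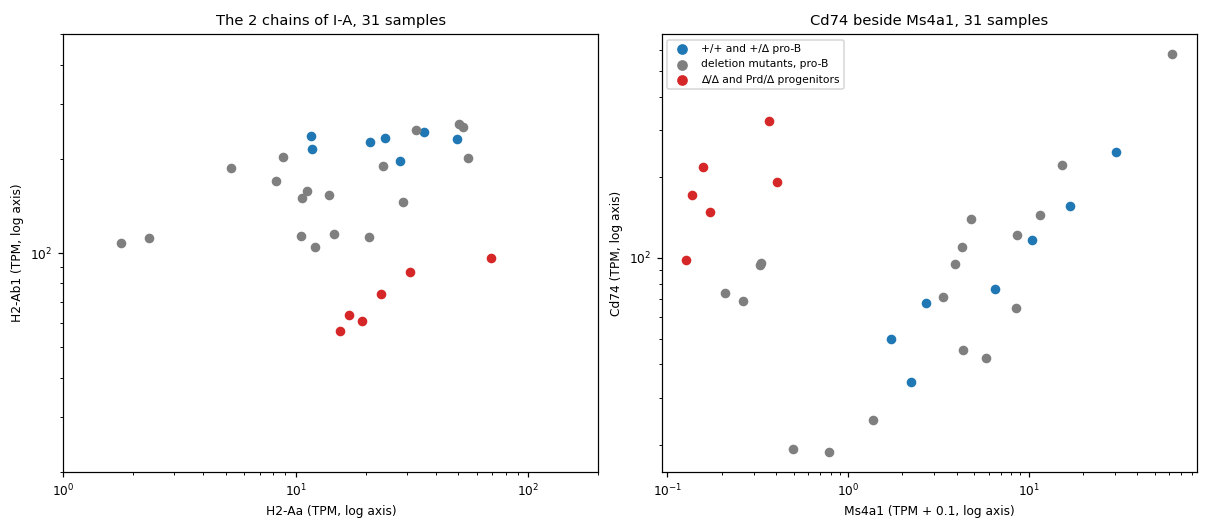
Left, H2-Aa (x) and H2-Ab1 (y) in TPM on log axes for 31 samples; right, Ms4a1 (TPM + 0.1, x) and Cd74 (TPM, y) on log axes for the same samples, with blue for +/+ and +/∆ pro-B cells, gray for deletion mutants and red for ∆/∆ and Prd/∆ progenitors. H2-Ab1 lies above H2-Aa in all 31 samples, and the red points combine Ms4a1 below 1 TPM with Cd74 between 98.2 and 326 TPM.

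The H2-DM and H2-O genes had coefficients of variation from 13.5% (H2-DMa) to 46.3% (H2-DMb2) in +/+ pro-B cells, against 46.7% for H2-Aa and 65.0% for Cd74. H2-DMa, the α chain of the editor H2-DM, stood between 22.7 and 31 TPM (median 24.7). H2-Oa and H2-Ob, the chains of its inhibitor, stood between 55.7 and 92.3 TPM and between 96.2 and 209 TPM. On the per-length TPM scale, H2-Ob was therefore above H2-DMa in each of the 5 samples. H2-DMb1 (3.20 to 7.61 TPM) and H2-DMb2 (2.56 to 8.41 TPM), alternative β chains of H2-DM, are near-identical genes. Reads that match both may be lost or misassigned, so the level of each is uncertain.

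Across all genotypes the 2 chains of I-A did not keep a fixed ratio. H2-Ab1 was above H2-Aa in 31 of 31 samples of pro-B cells and progenitors, by 1.4-fold to 60.9-fold (median 7.91), and in 17 of 17 T-lineage samples, by 1.64-fold to 142-fold (median 11.7). The group means of H2-Aa ran from 2.05 TPM (∆CRD1/-) to 53.6 TPM (∆CRD2/∆CRD2), a 26.1-fold range, and those of H2-Ab1 from 59.9 TPM (Prd/∆) to 253 TPM (∆OP/∆OP), a 4.22-fold range. H2-Eb1 ranged as H2-Aa did, from 1.12 to 29.0 TPM in the same groups, and Cd74 from 19.1 to 361 TPM in those groups too. H2-Oa had the narrowest range of group means of the 10 members, 1.97-fold.

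**Figure D3:**
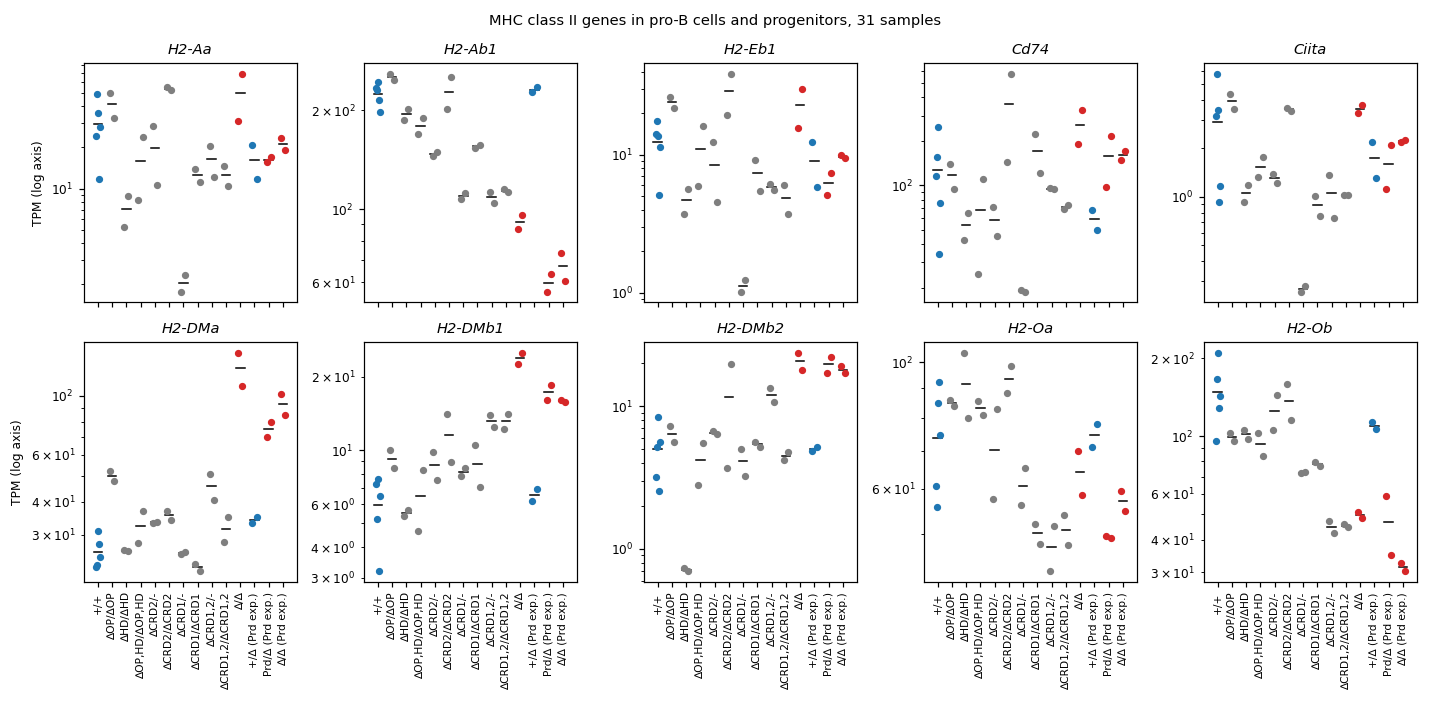
TPM of the 10 members (log axes, 1 panel each) in 31 samples of 14 groups; points are samples, black lines group means, blue the +/+ and +/∆ pro-B cells, gray the deletion mutants and red the ∆/∆ and Prd/∆ progenitors. H2-Aa, H2-Eb1, Cd74 and Ciita are lowest in ∆CRD1/-, H2-Ab1 and H2-Ob fall from +/+ to the red progenitors, and H2-DMa, H2-DMb1 and H2-DMb2 have their highest group means in the ∆/∆ progenitors.

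Loss of CRD1 over a null allele lowered the classical class II genes. H2-Aa stood at 1.77 and 2.34 TPM and H2-Eb1 at 1.02 and 1.23 TPM in the ∆CRD1/- samples, below all 5 +/+ samples. Ciita stood at 0.259 and 0.281 TPM and H2-Ab1 at 108 and 112 TPM, again below all 5. Of the 10 members, 5 were lower at a limma adjusted p under 0.05 and 0 were higher, where 5.88% of all genes tested were called lower and 5.05% higher; the median log2 fold change was -0.91 for the members and 0.02 for all genes tested.

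H2-Aa fell by 3.10 on the log2 scale (SE 0.52, limma adjusted p = 0.00127), an 8.55-fold difference, and H2-Eb1, the I-E β chain, by 2.66 (SE 0.50, limma adjusted p = 0.00309). H2-Ab1 fell by 0.91 (SE 0.11, limma adjusted p = 6.46e-05), a smaller change measured with a smaller error. The coactivator Ciita fell by 1.63 (SE 0.36, limma adjusted p = 0.00897), and its call was lost without +/+ replicate 4 (adjusted p = 0.054) or ∆CRD1/- replicate 1 (0.0727). H2-Ob fell by 0.90 (limma adjusted p = 0.0422), and that call was lost without +/+ replicate 3 (0.125), +/+ replicate 4 (0.145), ∆CRD1/- replicate 1 (0.193) or ∆CRD1/- replicate 2 (0.164). Cd74, at 19.3 and 18.8 TPM, was below all 5 +/+ samples, with a log2 fold change of -1.42 that missed the threshold (limma adjusted p = 0.133). H2-DMa (25.5 and 25.8 TPM) and H2-DMb2 differed from +/+ by -0.03 and 0.08 on the log2 scale, the latter being -0.18 with no read-length term. Ms4a1 stood at 0.397 and 0.689 TPM in these samples, below every +/+ value, and the later-B marker genes summed to between 20.4 and 22.8 TPM against 53.3 to 106 TPM in +/+; their part in the difference was not tested. In bulk RNA, fewer cells that express a gene and less RNA of it per cell cannot be told apart.

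With both alleles carrying the CRD1 deletion, the fall was smaller for H2-Aa and not seen for Cd74. In the ∆CRD1/∆CRD1 samples, H2-Aa stood at 13.9 and 11.1 TPM and H2-Eb1 at 9.24 and 5.49 TPM, and Cd74 stood at 223 and 121 TPM, within the +/+ range. H2-Ab1 stood at 154 and 158 TPM, below all 5 +/+ samples and above the ∆CRD1/- samples, and Ciita at 1.01 and 0.763 TPM. Of the 10 members, 3 were lower and 0 higher (4.11% and 3.64% of all genes tested): Ciita by -2.07 (SE 0.33, limma adjusted p = 0.00127), H2-Ab1 by -0.60 (SE 0.10, limma adjusted p = 0.0014) and H2-Ob by -0.93 (SE 0.24, limma adjusted p = 0.0299). H2-Aa had a log2 fold change of -1.48 (limma adjusted p = 0.0752). The Ciita call rests on the +/+ libraries of 50 nucleotides, which were 3.20 to 5.79 TPM, and without the read-length term its adjusted p was 0.178. The H2-Ob call was lost on leaving out +/+ replicate 1 or 2 or either mutant library (adjusted p 0.0907 to 0.192). ∆CRD1/∆CRD1 and ∆CRD1/- differed in read length and were not tested against each other.

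Removing CRD2 along with CRD1 gave another pattern, in which the levels of H2-Aa, H2-Eb1 and Cd74 were higher than after removal of CRD1 alone. In the ∆CRD1,2/- samples, H2-Aa stood at 20.6 and 12.1 TPM, H2-Eb1 at 6.11 and 5.55 TPM and Cd74 at 95.6 and 94.5 TPM. All of these lay above the ∆CRD1/- samples. Against ∆CRD1/-, 5 members were higher and 0 lower (1.02% and 2.56% of all genes tested), with a median log2 fold change of 1.18 over the members and -0.08 over all genes tested. H2-Aa rose by 2.90 (SE 0.52, limma adjusted p = 0.00621), Cd74 by 2.31 (SE 0.55, 0.0339), H2-Eb1 by 2.28 (SE 0.50, 0.0224), Ciita by 1.59 (SE 0.36, 0.025) and H2-DMa by 0.83 (SE 0.18, 0.0211). H2-Ab1 differed by -0.01 (limma adjusted p = 0.98). These calls rest on few libraries: none of the 5 was kept without ∆CRD1/- replicate 1 or without ∆CRD1,2/- replicate 1, H2-Aa alone was kept without ∆CRD1/- replicate 2, and H2-Eb1 and Cd74 were lost without ∆CRD1,2/- replicate 2. Ms4a1 stood at 0.23 and 0.225 TPM in the ∆CRD1,2/- samples, no higher than in ∆CRD1/-. The later-B marker genes, of which it is 1, summed to between 30.2 and 35.2 TPM in ∆CRD1,2/- and to between 20.4 and 22.8 TPM in ∆CRD1/-. The dendritic markers summed to between 76.0 and 95.3 TPM in ∆CRD1,2/- and to between 38.9 and 40.9 TPM in ∆CRD1/-, and Ccr7 made up 69.8 and 92.6 TPM of the former. The part of later B cells and of dendritic cells in the difference was not tested.

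Against +/+, the ∆CRD1,2/- cells had less H2-Ab1 and H2-O and more H2-DM RNA. Of the 10 members, 2 were higher and 3 lower (9.30% and 14.2% of all genes tested), all of them outside H2-Aa, H2-Eb1, Cd74 and Ciita, whose log2 fold changes were -0.20, -0.38, 0.89 and -0.04. These 4 values rest on +/+ replicates 3 and 4 as reference: with no read-length term, that of Cd74 was -0.12, and with a replicate block in its place, where +/+ replicates 1 and 2 are the ones that share numbers with the mutants, H2-Aa (limma adjusted p = 0.0354) and Ciita (0.000679) were called lower. H2-Ab1 stood at 113 and 105 TPM and was lower by -0.92 (SE 0.11, limma adjusted p = 2.6e-05). H2-Ob stood at 47.1 and 42.6 TPM and was lower by -1.60 (SE 0.27, limma adjusted p = 0.00057), with H2-Oa lower by -0.81 (SE 0.21, 0.0114). The editor went the other way: H2-DMa stood at 50.9 and 40.7 TPM (0.80, SE 0.18, limma adjusted p = 0.00504) and H2-DMb1 at 13.9 and 12.4 TPM (1.51, SE 0.32, 0.00348). Later-B marker genes moved with these falls: 3 of 4 tested were lower and 0 higher in ∆CRD1,2/-, with a median log2 fold change of -2.75. In the ∆CRD1,2 homozygotes 4 of 4 were lower (median -3.36, with 14.1% of all genes lower). Their part was not tested. The H2-Oa call was lost without +/+ replicate 3 (adjusted p = 0.0976), and the H2-Oa and H2-DMa calls without ∆CRD1,2/- replicate 1 (0.103 and 0.0651).

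The homozygous ∆CRD1,2 cells gave 1 member higher and 3 lower than +/+ (9.95% and 14.1% of all genes tested). H2-Ab1, at 115 and 113 TPM, was lower by -0.86 (SE 0.11, limma adjusted p = 5.33e-05), H2-Ob, at 45.8 and 44.5 TPM, by -1.58 (SE 0.27, 0.000627) and H2-Oa by -0.71 (SE 0.21, 0.0241), and H2-DMb1 was higher by 1.5 (SE 0.32, 0.00361). H2-DMa, at 28.2 and 34.9 TPM, was higher by 0.26 (limma adjusted p = 0.322). Without +/+ replicate 3 the adjusted p of H2-DMb1 was 0.0537 and that of H2-Oa 0.173. Directly against ∆CRD1,2/-, limma called 0 members (background 0.101% higher and 0.0577% lower), 2 had an unadjusted p under 0.05 (H2-DMa and H2-DMb2), and edgeR and DESeq2 also called 0. The 95% interval of the H2-DMa difference ran from -0.92 to -0.15. Against ∆CRD1/∆CRD1, limma called 0 (0.296% higher and 1.26% lower over all genes), with 2 at an unadjusted p under 0.05, and edgeR and DESeq2 called 1 each, Ciita (limma log2 fold change 2.04, adjusted p = 0.0526). That comparison sets 100-nucleotide against 50-nucleotide libraries, and the raw levels of Ciita were 1.02 and 1.03 TPM against 1.01 and 0.763 TPM.

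Over a null allele, deletion of CRD2 alone gave 1 call, and some differences turned with the choice of +/+ reference. Cd74 and Ciita differed from +/+ by 0.15 and 0.30 in the main fit and by -0.86 and -0.81 with no read-length term. With a replicate block in its place they differed by -1.79 and -1.71, and Ciita was then called lower (limma adjusted p = 0.0131). Granulocyte markers summed to 15541 TPM in ∆CRD2/- replicate 1. In ∆CRD2/- cells H2-Ab1, at 145 and 150 TPM, was the 1 member called lower, and 0 were higher (0.390% and 0.577% of all genes tested). It was lower by -0.49 (SE 0.11, limma adjusted p = 0.0459), a call lost without +/+ replicate 3 (0.374), ∆CRD2/- replicate 1 (0.217) or ∆CRD2/- replicate 2 (0.192). In the homozygotes, limma called 0 (0.101% higher and 0.0144% lower over all genes), with 6 members at an unadjusted p under 0.05, edgeR called 2 and DESeq2 called 3, all higher. Cd74 stood at 145 and 577 TPM in the 2 ∆CRD2/∆CRD2 samples, and Ms4a1 at 11.5 and 62.5 TPM in the same order. The median log2 fold change of the members was 1.22 against 0.02 over all genes. Cd74 differed by 2.50 (limma adjusted p = 0.157), with +/+ replicates 3 and 4 at 34.3 and 76.3 TPM as its reference, and ∆CRD2/∆CRD2 replicate 1 lay within the range of all 5 +/+ samples. The interaction of the CRD1 and CRD2 deletions in homozygotes was not called for any member by limma (0.650% higher and 2.39% lower over all genes) or edgeR, 2 members had an unadjusted p under 0.05, and DESeq2 called 1.

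Cells without Pax5 expressed class II genes, some members above, some below and some within their +/+ ranges. In the ∆/∆ progenitors, H2-DMa stood at 145 and 109 TPM, at least 3 times each +/+ value, H2-DMb1 at 22.6 and 25 TPM and H2-DMb2 at 23.4 and 17.9 TPM. All 6 values lay above the +/+ range. H2-Ab1 stood at 87.0 and 96.3 TPM and H2-Ob at 51.3 and 48.6 TPM, all 4 below the +/+ range. H2-Aa (31.1 and 68.8 TPM), H2-Eb1 (15.7 and 29.9 TPM), Cd74 (192 and 326 TPM), Ciita (3.31 and 3.70 TPM) and H2-Oa (70.0 and 58.5 TPM) overlapped it.

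Of the 10 members, 3 were higher and 2 lower in ∆/∆ than in +/+, where 18.8% of all genes tested were higher and 16.1% lower; the median log2 fold change was 0.46 over the members and 0.00 over all genes. H2-DMa rose by 2.30 (SE 0.16, limma adjusted p = 1.01e-07), which is 4.93-fold. H2-DMb1 rose by 1.83 (SE 0.29, 0.000211) and H2-DMb2 by 1.97 (SE 0.55, 0.0126), the latter call being lost without ∆/∆ replicate 1 (0.0962). H2-Ab1 fell by 1.37 (SE 0.10, limma adjusted p = 9.9e-08) and H2-Ob by 1.58 (SE 0.24, 0.000156). The log2 fold changes of Cd74, H2-Eb1, H2-Aa, H2-Oa and Ciita were 0.60, 0.52, 0.41, -0.04 and -0.19, with limma adjusted p of 0.403 or more, and that of Ciita was 0.55 with no read-length term. Of the later-B marker genes tested, 4 of 4 were lower in ∆/∆ (median -2.02) and 4 of 4 in the ∆/∆ progenitors of the Prd experiment (median -2.80, with 19.1% of all genes lower). Their part in the falls of H2-Ab1 and H2-Ob was not tested.

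Marker genes of dendritic cells, which themselves make much class II, moved in the same samples. They summed to between 109 and 119 TPM in ∆/∆ and to between 24.4 and 51.2 TPM in +/+, with all 8 detected. Itgax (CD11c) stood at 15.6 and 22.4 TPM in ∆/∆ and at most at 0.716 TPM in +/+, and Clec10a at 10.4 and 17.1 TPM against at most 2.07 TPM. Those of plasmacytoid dendritic cells summed to between 730 and 1158 TPM against 251 to 290 TPM. The part of such cells in the rise of H2-DMa, H2-DMb1 and H2-DMb2 was not tested. The sort of these progenitors removed CD11b-positive and Gr1-positive cells but its antibody mixture held none against CD11c.

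The 2 ∆/∆ samples differed from ∆CRD1,2/- in 1 member, H2-DMa, which was higher by 1.51 (SE 0.24, limma adjusted p = 0.00395); 0 were lower, and over all genes 2.24% were higher and 1.41% lower. These cells shared a sorting gate but not a sequencing read length, so the fit corrects the difference through the +/+ samples. Leaving out the 5 libraries with over 3000 TPM of granulocyte markers keeps 1 ∆/∆ library, assumed to vary like the other groups, and the H2-DMa difference was then 1.30 (SE 0.31, limma adjusted p = 0.0829).

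**Figure D4:**
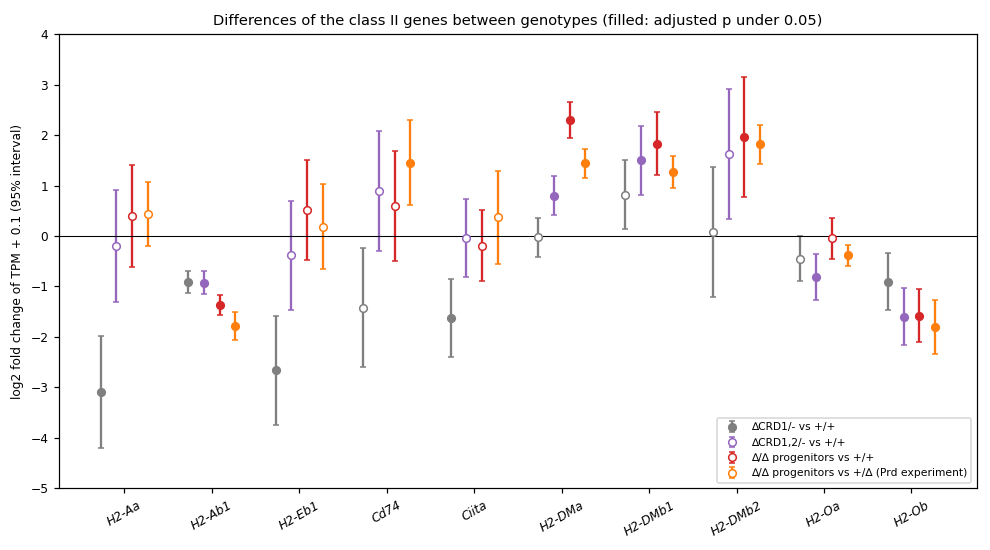
Log2 fold change of TPM + 0.1 (y axis, with 95% intervals from limma) of the 10 members (x axis) in ∆CRD1/- (gray), ∆CRD1,2/- (purple) and ∆/∆ (red) against +/+, and in ∆/∆ against +/∆ of the Prd experiment (orange); filled points have an adjusted p under 0.05. H2-Aa and H2-Eb1 are called in ∆CRD1/- alone of these 4 comparisons, H2-Ab1 and H2-Ob are called lower in all 4, and H2-DMb1 is called higher in all but ∆CRD1/-.

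The Prd experiment compared Pax5-deficient progenitors with pro-B cells in other libraries, and the labels do not say whether these came from separate mice. Its progenitors were also gated in another way than its pro-B cells, so genotype and gate cannot be told apart here either. In its ∆/∆ progenitors, 4 members were higher and 3 lower than in +/∆ pro-B cells (20.8% and 19.1% of all genes tested), and the 5 members called in the first set were called in the same direction again. H2-Ab1 stood at 227 and 236 TPM in +/∆ and at 73.8 and 60.7 TPM in ∆/∆, lower by -1.79 (SE 0.12, limma adjusted p = 0.000114). H2-Ob stood at 113 and 107 TPM against 32.5 and 30.3 TPM, lower by -1.81 (SE 0.23, 0.00139). H2-DMa stood at 33.2 and 35.0 TPM against 102 and 84.7 TPM, higher by 1.44 (SE 0.12, 0.000278). None of these ranges overlapped, and the share of all genes without overlap was not counted.

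H2-DMb1 rose by 1.27 (SE 0.13, limma adjusted p = 0.000668) and H2-DMb2 by 1.82 (SE 0.16, 0.000349). Cd74, at 68.1 and 49.6 TPM in +/∆ and 149 and 172 TPM in ∆/∆, rose by 1.46 (SE 0.35, limma adjusted p = 0.0183), and H2-Oa fell by 0.38 (SE 0.09, 0.0153). Both of these calls depended on single libraries: the Cd74 adjusted p ran from 0.0578 to 0.138 on leaving out each of 4 libraries, and that of H2-Oa was 0.0629, 0.134 and 0.079 without +/∆ replicate 1, +/∆ replicate 2 and ∆/∆ replicate 2. In this experiment the dendritic markers summed to between 76.3 and 76.9 TPM in ∆/∆ against 26.1 to 26.9 TPM in +/∆, and Itgax stood at 5.50 and 3.12 TPM, lower than in the first set of ∆/∆ progenitors. The granulocyte markers stayed at or under 704 TPM in all 6 libraries.

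With the paired domain alone, the members called against +/∆ differed in the same direction as in the Pax5-deficient progenitors. In Prd/∆ progenitors H2-Ab1 stood at 56.3 and 63.5 TPM, H2-Ob at 58.8 and 34.8 TPM and H2-DMa at 69.8 and 79.8 TPM, with all 6 values outside the +/∆ range. Against +/∆, 4 members were higher and 3 lower (24.1% and 16.6% of all genes tested): H2-Ab1 by -1.95 (SE 0.12, limma adjusted p = 7.89e-05), H2-Ob by -1.28 (0.00533), H2-Oa by -0.59 (0.00279), H2-DMa by 1.13 (0.000681), H2-DMb1 by 1.39 (0.000456), H2-DMb2 by 1.94 (0.000258) and Cd74 by 1.33 (0.025). The Cd74 call was lost without either +/∆ library (0.068 and 0.17) or either ∆/∆ library (0.0679 and 0.0664).

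Directly between Prd/∆ and ∆/∆, limma called 0 members (1.17% higher and 0.796% lower over all genes), 1 had an unadjusted p under 0.05, and edgeR and DESeq2 called 0. The 1 member was H2-DMa, lower in Prd/∆ by -0.32 with a 95% interval from -0.60 to -0.03. The interval of H2-Ab1 ran from -0.44 to 0.11, of H2-Ob from -0.01 to 1.07 and of Cd74 from -0.98 to 0.72. H2-Ob was higher in both Prd/∆ samples than in both ∆/∆ samples. With groups this small, the lack of calls does not show that the levels were equal. These comparisons share their +/∆ or ∆/∆ samples.

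The central deletions were read with +/+ replicates 3 and 4, of the same read length, as their reference. In ∆OP/∆OP, Ciita stood at 4.37 and 3.51 TPM against 0.926 and 1.17 TPM, H2-DMa at 52.3 and 47.8 TPM against 27.6 and 24.7 TPM, and H2-Eb1 at 26.4 and 21.9 TPM against 5.11 and 11.4 TPM. The values of each lay above both reference samples, a separation whose share over all genes was not counted. The Ciita values lay within the range of all 5 +/+ samples. Limma called 0 members (0.292% higher and 0.192% lower over all genes), with 6 at an unadjusted p under 0.05, and a median log2 fold change of 0.96 over the members against -0.03 over all genes. H2-DMa differed by 0.93 (SE 0.15, limma adjusted p = 0.0548) and Ciita by 1.81 (SE 0.39, 0.0901). edgeR called 2 (Ciita and H2-DMa) and DESeq2 called 4 (H2-Eb1, Ciita and H2-DMa higher, H2-Ob lower). Both ∆OP/∆OP libraries held granulocyte markers of 6511 and 6872 TPM, and +/+ replicate 4 held 6464 TPM of them; their part in these differences was not tested.

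In ∆HD/∆HD, H2-DMb2 stood at 0.731 and 0.704 TPM, below all 5 +/+ samples and below each other sample of pro-B cells and progenitors. It differed by -2.26 from replicates 3 and 4 (SE 0.46, limma adjusted p = 0.0963). The lowest of these values rested on 7 reads, and reads that match both H2-DMb2 and H2-DMb1 (5.37 and 5.66 TPM) may be lost or misassigned. Limma called 0 members (0.331% higher and 0.308% lower over all genes) with 3 at an unadjusted p under 0.05, edgeR called 0, and DESeq2 called 3 lower (H2-Aa, H2-DMb2 and H2-Ob). H2-Aa stood at 5.26 and 8.82 TPM, below all 5 +/+ samples.

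In ∆OP,HD, limma called 0 members (0.739% higher and 0.485% lower over all genes) with 1 at an unadjusted p under 0.05, H2-Ob, which edgeR and DESeq2 each called lower. H2-Ob stood at 103 and 83.7 TPM against 129 and 143 TPM in +/+ replicates 3 and 4 (log2 fold change -0.55, limma adjusted p = 0.0975). The 2 ∆OP,HD samples themselves differed in Cd74 (24.9 and 110 TPM) and H2-Aa (8.19 and 23.6 TPM), with the higher values in replicate 2, whose granulocyte markers summed to 6259 TPM against 557 TPM in replicate 1. The interaction of the OP and HD deletions was called for 0 members by limma (0% higher and 0.00769% lower over all genes), edgeR and DESeq2, with 4 at an unadjusted p under 0.05.

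The group means of H2-Ab1 fell in the following order, given as a description. The lowest were Prd/∆ (59.9 TPM), ∆/∆ of the Prd experiment (67.2 TPM) and ∆/∆ (91.7 TPM), and then came ∆CRD1,2/- (109 TPM), ∆CRD1/- (110 TPM) and ∆CRD1,2 homozygotes (114 TPM), whose ranges of 105 to 115 TPM ran together. ∆CRD2/- (147 TPM) and ∆CRD1/∆CRD1 (156 TPM) followed, and ∆OP,HD (180 TPM), ∆HD (195 TPM), +/+ (224 TPM), ∆CRD2/∆CRD2 (227 TPM), +/∆ (232 TPM) and ∆OP (253 TPM) stood above, most of them overlapping their neighbours. H2-Ob had a like order, from 31.4 TPM in ∆/∆ of the Prd experiment to 149 TPM in +/+. Levels set across experiments were normalized within each library alone.

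In wild-type cells of the T lineage, Cd74, H2-Aa and H2-Eb1 were high in LMPP and DN1 and low from DN2a on. Cd74 stood at 180 and 146 TPM in LMPP and at 134, 56.2 and 293 TPM in DN1, and at 1.65, 1.70 and 2.20 TPM in DN2a. H2-Aa stood at 101 and 65.4 TPM, then 46.0, 14.7 and 109 TPM, then 3.08, 2.55 and 2.16 TPM in the same stages. H2-Eb1 stood at 54.1 and 40.5 TPM, then 29.3, 10 and 90.3 TPM, then 1.25, 1.08 and 1.13 TPM. The DN1 samples varied about 5-fold or more in Cd74, H2-Aa and H2-Eb1 and still did not overlap DN2a.

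**Figure D5:**
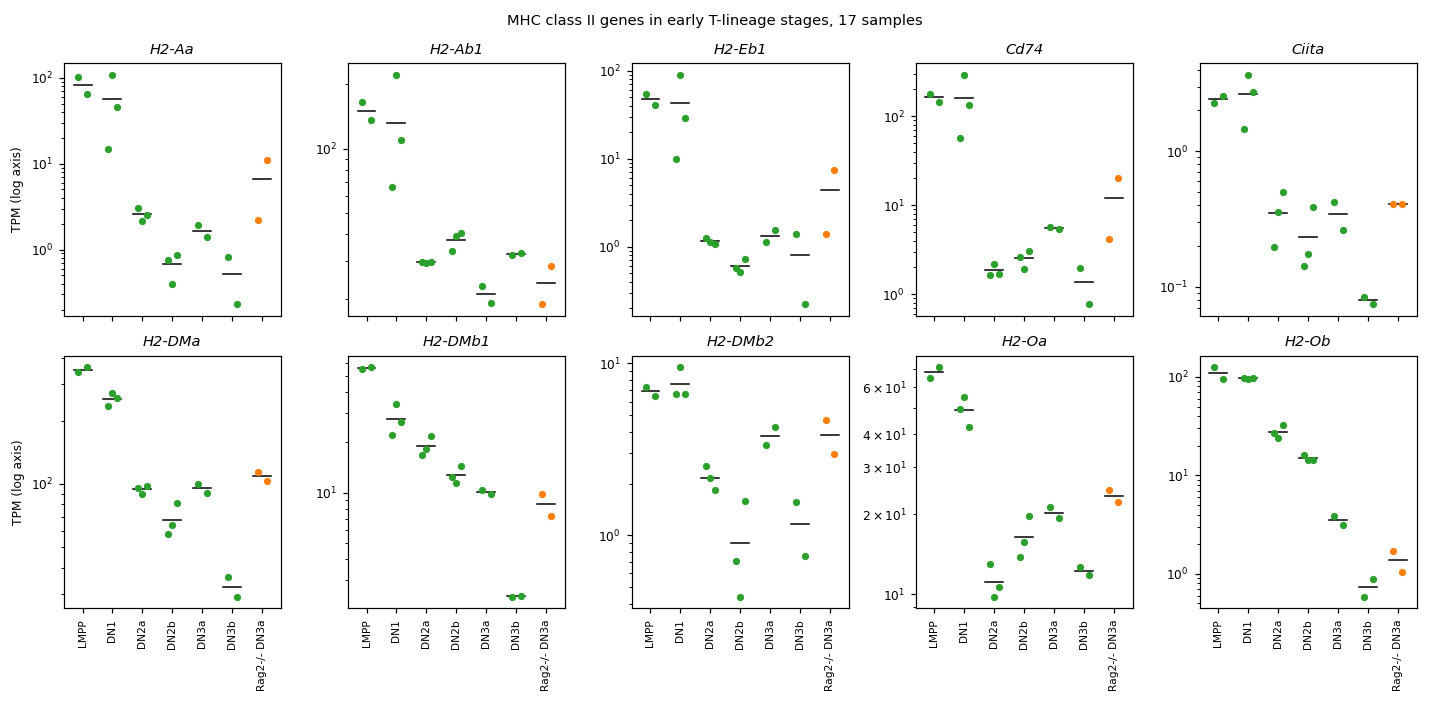
TPM of the 10 members (log axes, 1 panel each) in 17 samples of LMPP, DN1, DN2a, DN2b, DN3a, DN3b (green) and Rag2-/- DN3a (orange); points are samples and black lines group means. From DN1 to DN2a all 10 members are called lower by limma, as are 22.9% of all genes tested. Cd74 falls there from a mean of 161 to 1.85 TPM, and H2-Ob declines further at every later stage.

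From LMPP to DN1, 2 members were lower and 0 higher (11.9% and 6.73% of all genes tested). H2-DMb1, at 54.8 and 56.4 TPM in LMPP and 26.6, 22.0 and 33.8 TPM in DN1, fell by 1.04 (SE 0.19, limma adjusted p = 0.00128), and H2-DMa by 0.46 (SE 0.14, 0.0305), a call that was lost under median-ratio scaling (0.0969) and without LMPP replicate 1 (0.103), LMPP replicate 2 (0.151), DN1 replicate 1 (0.0668) or 1 of the 2 DN1 libraries numbered 2 (0.107). H2-Ob, at 126 and 95.6 TPM and then 97.0, 98.2 and 95.1 TPM, overlapped between the 2 stages.

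From DN1 to DN2a, all 10 members were lower and 0 higher, where 22.9% of all genes tested were lower and 10.9% higher; the median log2 fold change was -2.06 over the members and -0.18 over all genes. Cd74 fell by 6.07 (SE 0.57, limma adjusted p = 4.19e-06), which is 67.4-fold, H2-Eb1 fell by 4.58 (SE 0.73, 0.000392) and H2-Aa fell by 3.98 (SE 0.66, 0.000553). Ciita, at 2.72, 1.47 and 3.68 TPM in DN1 and 0.196, 0.499 and 0.356 TPM in DN2a, fell by 2.56 (SE 0.38, 0.000223), and H2-Ab1, at 110, 66.2 and 222 TPM and then 29.6, 29.8 and 29.4 TPM, by 1.98 (SE 0.31, 0.000322). H2-Oa fell by 2.13, H2-Ob by 1.81, H2-DMb2 by 1.75 and H2-DMa by 1.42, with limma adjusted p between 3.73e-07 and 0.00275.

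H2-DMb1 fell least, by 0.52 (SE 0.17, limma adjusted p = 0.0314), a call lost without DN1 replicate 1 (0.0761), 1 of the 2 DN1 libraries numbered 2 (0.13) or 1 of the 2 DN2a libraries numbered 1 (0.12). Median-ratio scaling moved the median of all genes by 0.15 in this comparison, and then the Cd74 difference was -5.93 and the H2-DMb1 call was lost (0.175). The dendritic markers summed to between 32.6 and 37.5 TPM in DN1 and to between 28.7 and 36.6 TPM in DN2a, while 3 of the 6 tested were lower and 1 higher by limma (Batf3, Ccr7 and Zbtb46 lower, Itgax higher), with a median log2 fold change of -1.84. Of the plasmacytoid dendritic markers 3 of 4 tested were lower and 0 higher. Over all genes tested, 22.9% were lower and 10.9% higher. Macrophage markers summed to between 175 and 190 TPM in DN1 and to between 47.1 and 68.1 TPM in DN2a, and granulocyte markers to between 1722 and 1970 and between 431 and 473 TPM. The part of dendritic, macrophage or granulocyte RNA was not tested. The thymic sorts removed cells with CD11b, CD11c or Gr1.

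After DN2a the members parted. H2-Ob, which stood at 26.7, 32.8 and 24.0 TPM in DN2a, was 14.2, 16.1 and 14.4 TPM in DN2b, 3.88 and 3.10 TPM in DN3a and 0.585 and 0.884 TPM in DN3b. No neighbouring stages overlapped from DN1 on. Its log2 fold changes at these steps were -0.89 (SE 0.20, limma adjusted p = 0.00553), -2.07 (SE 0.22, 7.39e-06) and -2.12 (SE 0.24, 6.88e-06).

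H2-Ab1 kept a level of 29.4 to 40.3 TPM in DN2a and DN2b, 22.9 and 19 TPM in DN3a and 31.8 and 32.8 TPM in DN3b, while H2-Aa stood at or under 3.08 TPM in all 10 of these samples. H2-DMa was the member with the highest level in each DN2a, DN2b and DN3a sample, at 89.9 to 98.3 TPM in DN2a, 58.0 to 81.0 TPM in DN2b, 99.5 and 90.9 TPM in DN3a and 35.9 and 29.0 TPM in DN3b.

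From DN2a to DN2b, 4 members were lower and 1 higher (8.43% and 9.80% of all genes tested): H2-Ob, H2-DMa by -0.50 (SE 0.12, limma adjusted p = 0.0114), H2-DMb1 by -0.57 (0.0321), H2-DMb2 by -1.32 (0.021) and H2-Oa by 0.55 (0.0199). Apart from H2-Ob, each of these calls was lost on leaving out 1 library or more, and the H2-Oa call under median-ratio scaling (0.111). From DN2b to DN3a, 2 were higher and 1 lower (31.4% and 14.4% of all genes tested): H2-DMb2 by 2.10 (SE 0.41, limma adjusted p = 0.00102), H2-DMa by 0.51 (SE 0.14, 0.00906) and H2-Ob. Median-ratio scaling shifted the median of all genes by -0.27 here, and the counts became 1 higher and 3 lower: H2-DMa was no longer called (0.23, limma adjusted p = 0.337), while H2-Ab1 (-1.12, 0.0222) and H2-DMb1 (-0.60, 0.0453) were called lower.

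From DN3a to DN3b, 7 members were lower and 0 higher, where 39.2% of all genes tested were lower and 14.2% higher, and the medians were -1.61 and -0.41. H2-Ob, H2-DMb1 (by -2.03, SE 0.21, limma adjusted p = 2.78e-06) and H2-DMa (by -1.56, SE 0.15, 1.89e-06) had the smallest adjusted p. Cd74, at 5.72 and 5.40 TPM and then 1.98 and 0.772 TPM, fell by 2.07 (SE 0.70, 0.023), Ciita by 1.28 (0.032), H2-DMb2 by 1.69 (0.00565) and H2-Oa by 0.72 (0.00465). With a pseudocount of 1, Cd74 (0.0603) and Ciita (0.274) were not called. Median-ratio scaling shifted the median of all genes by 0.26, and Ciita (0.0766) and H2-Oa (0.127) were then not called. The calls of Cd74 and Ciita were also lost on leaving out single DN3a or DN3b libraries, and that of H2-DMb2 without DN3b replicate 2. Each of those fits leaves 1 sample in a group. H2-Ab1 was the member that stood higher in both DN3b samples, by 0.63 (limma adjusted p = 0.178).

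In Rag2-/- DN3a cells, which cannot rearrange antigen receptor genes, 1 member was lower than in wild-type DN3a and 0 higher (19.5% and 6.91% of all genes tested). H2-Ob stood at 1.71 and 1.04 TPM against 3.88 and 3.10 TPM and was lower by -1.31 (SE 0.24, limma adjusted p = 0.00164). The 2 Rag2-/- samples differed from each other in Cd74 (4.13 and 20.2 TPM), H2-Aa (2.23 and 10.9 TPM) and H2-Eb1 (1.38 and 7.52 TPM), all higher in replicate 2, in which macrophage markers summed to 113 TPM against 77.0 TPM in replicate 1.

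Genes whose level ran with the mean log2 level of H2-Aa, H2-Ab1, H2-Eb1 and Cd74 were ranked by Pearson's r, as a description. Over 31 samples of pro-B cells and progenitors, Ciita had an r of 0.897, H2-Eb1 and H2-Aa, which are part of the mean, 0.980 and 0.962, and H2-Ab1, also part of it, 0.361. H2-DMa (0.264), H2-Oa (0.216) and H2-Ob (0.239) ran less closely. The non-members with the highest r were Cfp (0.771), Klf2 (0.763), Atp6v0a1 (0.752) and Zap70 (0.749), among 9890 genes above 5 TPM. Over the 17 T-lineage samples, Ciita had an r of 0.953, H2-DMa 0.915 and H2-Ab1 0.889, and the 5 highest non-members were Ccnd1 (0.934), Arrb1 (0.922), Leprel2 (0.921), Relb (0.918) and Arhgef3 (0.915). The samples share genotypes, batches and stages.

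Genes that act on the class II promoters or on Ciita were a list of 18. In ∆CRD1/- cells 2 were higher and 3 lower of 18 tested (5.05% and 5.88% over all genes), among them Tcf3 (E2A) by -1.09 (limma adjusted p = 0.000533), Irf8 by -1.11 (0.000959), Irf4 by -0.68 (0.0202), and Spi1 (PU.1) by 0.86 (0.00209). In ∆/∆ progenitors 4 were higher and 6 lower of 18 (18.8% and 16.1% over all genes). Irf8, an interferon regulatory factor of dendritic cells and B cells, stood on average at 482 TPM there against 209 TPM in +/+ and 84.9 TPM in ∆CRD1/-, and was higher by 1.05 (limma adjusted p = 0.000183). Tcf3 and Irf4 were lower by -2.12 (8.51e-08) and -2.19 (1.07e-07), and Spi1 higher by 0.95 (0.000112). In ∆/∆ of the Prd experiment 2 were higher and 9 lower of 17 (20.8% and 19.1% over all genes). From DN1 to DN2a, 0 were higher and 10 lower of 17 (10.9% and 22.9% over all genes), among them Bcl6 by -2.22 (8.26e-07), Irf4 by -2.72 (6.73e-06), Irf8 by -1.22 (8.71e-05) and Spi1 by -1.30 (0.000251), all limma adjusted p.

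Of the remaining class II genes and the endosomal proteases that prepare peptides or trim the invariant chain, 7 were higher and 1 lower of 12 tested in ∆/∆ (18.8% and 16.1% over all genes), with a median log2 fold change of 0.78 against 0.00 over all genes. In ∆/∆ of the Prd experiment, 5 were higher and 1 lower of 10 (20.8% and 19.1% over all genes). H2-Eb2, a class II β gene next to H2-Eb1, stood at 19.2 and 15.2 TPM in ∆/∆ and between 1.22 and 3.18 TPM in +/+ (3.17, SE 0.38, limma adjusted p = 1.53e-05), and in the Prd experiment at 11 and 8.14 TPM against 1.72 and 1.97 TPM (2.30, 0.00372). The protease genes Lgmn (1.91, limma adjusted p = 1.07e-07), Ctss, which trims the invariant chain (1.30, 5.67e-07), and Ctsd (0.93, 3.25e-05) also rose in ∆/∆. In ∆CRD1/-, where H2-Aa and H2-Eb1 were low, Lgmn (1.81, 3.45e-06) and Ctss (0.55, 0.00916) rose as well, with 2 higher and 1 lower of 12 (5.05% and 5.88% over all genes). From DN1 to DN2a, Ctss fell by 3.63 (1.08e-06), from a mean of 74.5 to 6.07 TPM, and Lgmn by 2.54 (3.66e-06), with 1 higher and 3 lower of 9 (10.9% and 22.9% over all genes).

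Of the class I presentation genes, which supply peptides to CD8 T cells, 8 were higher and 0 lower of 14 tested in ∆/∆ (18.8% and 16.1% over all genes), among them Nlrc5, the class I counterpart of Ciita, from a mean of 35.8 to 109 TPM (1.61, limma adjusted p = 5.03e-07), and Tap1 (1.06, 2.85e-06). In ∆/∆ of the Prd experiment, 7 were higher and 0 lower of 14 (20.8% and 19.1% over all genes). From DN1 to DN2a, 3 were higher and 2 lower of 14 (10.9% and 22.9% over all genes). From DN3a to DN3b, 0 were higher and 8 lower (14.2% and 39.2% over all genes), with H2-D1 lower by -2.25 (6.41e-08) and B2m by -1.97 (3.43e-07). Co-stimulatory genes in ∆/∆, against the same 18.8% and 16.1%, had 3 higher and 1 lower of 5, with Icosl up by 3.18 (2.37e-07) and Cd40 down by -3.67 (4.6e-05), and interferon gamma signalling genes 4 higher and 0 lower of 7, with Ifngr1 up by 1.77 (7.08e-08).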

How the data were processed

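RNA of sorted cells was sequenced in 31 samples of pro-B cells and progenitors and 17 samples of early T-lineage stages. The authors aligned the first set to GRCm38 (mm10) with STAR 2.4.2a after trimming reads to 50 nucleotides and deposited TPM values per gene. The authors deposited those of the second set, aligned to mm9 with TopHat 1.4.1, as a score on the TPM scale with 2 rows per gene. A value of exactly 1 was read as 0, the mean of the 2 rows was used, and the upper over the lower row had a median ratio of 1.19 to 1.28. Of the 31 tables, 8 held no gene names and were named by row order, the 23 named tables all having 1 order. This was checked with the read counts that the authors deposited beside the TPM of 2 samples, which implied the same gene lengths within 1% in 100% of 14405 rows, and in 1.48% when shifted by 1 row. The same lengths gave back whole reads from TPM (100% of low values within 0.05 of a whole number), which entered the count tests.

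Differences were tested on log2(TPM + 0.1) with limma 3.58.1 (R 4.3.3; eBayes with trend, two-sided, Benjamini-Hochberg over all genes above 1 TPM in at least 1 sample), so that fold changes understate those of low genes. There were 4 models: central deletions (8 samples, 12996 genes), C-terminal deletions and ∆/∆ (19 samples, 13854 genes, with a read-length term), the Prd experiment (6 samples, 12941 genes) and the T lineage (17 samples, 13482 genes). Samples were grouped by their labels, sequencing read length came from the study's list of samples, and 25 comparisons were made. A member was called at an adjusted p under 0.05. Alternatives were edgeR 4.0.16 and DESeq2 1.42.0 on recovered reads, a pseudocount of 1, no filter, median-ratio scaling, no trend, no read-length term, a replicate block, all 25 pro-B samples in 1 model for the central deletions, for the T lineage either row alone and values of exactly 1 kept, and leaving out each library. The scripts were tested on simulated data. The members, the gene lists and the promoter letters were chosen with earlier results of these data known. The text names the members in every comparison, of the other lists those with the smallest adjusted p (at most 4 per list and comparison) and a fixed set of regulators, and the 5 non-members most like the members, 1 of which is not reported here. Tables with chromatin data were not used here.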

Additional observations from a re-analysis of the deposited data

How the results depend on the processing

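Over the 10 members and 25 comparisons, 204 of 5850 alternative values turned direction, in 80 of 250 differences. None of the 204 belonged to a difference called as reported, and of the 1694 alternative values of called differences 127 were no longer past the threshold. With no read-length term 17 values turned, among them Cd74 in ∆CRD1,2/- (-0.12), ∆CRD1,2/∆CRD1,2 (-0.53), ∆CRD2/- (-0.86) and ∆CRD1/∆CRD1 (0.67), each against +/+. Settings also changed the number of members called. Against +/+, ∆OP went from 0 called by limma to 2 (edgeR), 4 (DESeq2) and 2 (all 25 pro-B samples in 1 model), ∆HD from 0 to 3 (DESeq2), and ∆OP,HD from 0 to 1 with either count test. ∆CRD2/- went from 1 to 0 without trend and with edgeR, and ∆CRD2/∆CRD2 from 0 to 2 (edgeR) and 3 (DESeq2). In ∆CRD1/-, Ciita was lost with a pseudocount of 1 (0.0801) and H2-Ob with no filter (0.0677) and no trend (0.0691), and Cd74 was gained with DESeq2 (0.0431) and with no read-length term (0.0117). In ∆CRD1,2/-, H2-DMb2 was gained with DESeq2 (0.0242) and with no read-length term (0.0447). In ∆CRD1/∆CRD1, H2-Aa was gained with edgeR (0.0469) and DESeq2 (0.00504), and H2-Ob was lost with no trend (0.0535). In the Prd experiment, Cd74 was lost with no trend in ∆/∆ (0.0527) and in Prd/∆ (0.0654), and with no filter in Prd/∆ (0.0557). ∆CRD1,2/- against ∆CRD1/- went from 5 to 3 with a pseudocount of 1, with no filter and with no read-length term. ∆CRD1,2 against ∆CRD1 homozygotes went from 0 to 1 with a pseudocount of 1, median-ratio scaling, no trend, either count test or no read-length term. ∆/∆ against ∆CRD1,2/- went from 1 to 2 with no read-length term, the interaction of CRD1 and CRD2 from 0 to 1 with DESeq2, and DN1 against LMPP from 2 to 1 under median-ratio scaling.

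With 1 library left out at a time, ∆CRD1/- against +/+ had 3 to 6 members called, ∆CRD1,2/- 3 to 6, ∆CRD2/- 0 to 1, ∆CRD2/∆CRD2 0 to 1, ∆CRD1/∆CRD1 2 to 4, ∆CRD1,2/∆CRD1,2 2 to 4 and ∆/∆ 4 to 5. ∆CRD1,2/- against ∆CRD1/- had 0 to 6, the homozygotes of ∆CRD1,2 against those of ∆CRD1 0 to 1, and the interaction of CRD1 and CRD2 0 to 1. In the Prd experiment, ∆/∆ had 5 to 7, Prd/∆ 6 to 7, and Prd/∆ against ∆/∆ 0 to 1. In the T lineage the ranges were 1 to 3 for DN1 against LMPP, 9 to 10 at DN2a, 2 to 6 at DN2b, 2 to 4 at DN3a and 4 to 8 at DN3b. Leaving out the 5 libraries with granulocyte markers above 3000 TPM, an alternative chosen after seeing the data, gave 0 for ∆CRD2/-, 2 for ∆CRD2/∆CRD2, 5 for ∆CRD1/∆CRD1, 3 between the homozygotes of ∆CRD1,2 and ∆CRD1, 0 for ∆/∆ against ∆CRD1,2/- and 1 for the interaction of CRD1 and CRD2. It leaves 1 library each of ∆CRD2/-, ∆CRD2/∆CRD2 and ∆/∆, which are assumed to vary like the other groups. It gave 5 for ∆CRD1/-, 7 for ∆CRD1,2/-, 4 for ∆CRD1,2/∆CRD1,2 and 5 for ∆/∆, each against +/+.

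Whether replicate numbers pair the samples was not settled. Deviations from group means of same-numbered samples correlated between -0.28 and 0.18 in the C-terminal set (10 of 56 pairs above 0.1). The correlations lay between -0.29 and 0.18 in the T lineage (3 of 61) and between -0.11 and 0.04 in the Prd experiment (0 of 6). In groups of 2 the deviations mirror each other, so 2 such groups give the same value for both numbers. These correlations therefore cannot exclude pairing. With a replicate block in place of read length, ∆CRD2/- had 2 members called, ∆CRD1,2 against ∆CRD1 homozygotes 2 and ∆/∆ against ∆CRD1,2/- 5. This block makes +/+ replicates 1 and 2, of 50-nucleotide reads, the reference. Under it, H2-Aa and Ciita were gained as lower and H2-Oa lost in ∆CRD1,2/-, H2-Aa, H2-Eb1 and Ciita gained and H2-Oa lost in ∆CRD1,2/∆CRD1,2, Cd74 gained in ∆CRD1/-, H2-Aa gained in ∆CRD1/∆CRD1 and H2-DMb2 lost in ∆/∆. With a replicate block, the comparisons in the Prd experiment kept counts of 7, 7 and 0, and those along the T lineage had 2, 10, 4, 3 and 7, with 1 for Rag2-/- DN3a, H2-DMb1 at DN2b being lost (0.0539). For the central deletions, no paired analysis was possible because each comparison involves +/+ replicates 3 and 4, whose numbers the mutants (1 and 2) do not share.

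The number of calls is limited by groups of 2 samples and by the few reads behind Ciita and H2-DMb2 in single libraries (as few as 21 and 7). Neither the gates nor the sequencing sets can be separated from the genotypes that have only 1 of them. The deposited values of the T lineage have no read totals, so their depth is unknown.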
